A study of Drosophila melanogaster with 22 samples.

Results

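Drosophila S2 cells, which derive from late embryos and resemble blood cells (hemocytes), were treated with double-stranded RNA (dsRNA) against Rrp47, and their messenger RNA was measured. The 2 arrays titled as Rrp47 depleted were set against the 2 arrays titled as GFP dsRNA controls. These were 4 of the 22 one-colour Affymetrix arrays of the series. The other 18 came from cells given dsRNA against 1 of 8 further exosome components, with 4 arrays for Rrp4 and 2 each for Csl4, Dis3, Mtr3, Rrp6, Rrp40, Rrp46 and Ski6. All groups, the control included, received 30 µg/ml of dsRNA in 25 cm2 flasks at 27 °C on days 0, 1 and 3, and total RNA was taken with TRIzol on day 5. GFP is a jellyfish reporter gene with no counterpart in the fly genome, so its dsRNA has no intended target in these cells. Labelling started from 6 µg of total RNA. The titles call the Rrp47 arrays biological replicates, but whether the arrays of a group came from separate cultures is not given in the sources used here. The p-values below therefore measure only the spread between these arrays, which may be technical. The series was made to list the mRNAs that exosome subunits act on in living cells.

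The RNA exosome is a ring-shaped protein complex through which RNA is threaded and digested from the 3′ end. In the nucleus it works with the exonuclease Rrp6, which matures ribosomal and small nucleolar RNAs and removes faulty or unwanted transcripts. Rrp47, known mostly from work in yeast, is a small protein that binds Rrp6 and structured RNA, and in yeast it keeps Rrp6 stable. Csl4, Rrp4 and Rrp40 cap the ring, Mtr3, Rrp46 and Ski6 are subunits of the ring itself, and Dis3 is its other exonuclease.

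Values below are log2 of quantile-normalized probe set signal, so a difference of 1 is 2-fold, and fold changes are Rrp47 minus GFP unless another group is named. The ± beside a fold change is the standard error (SE) from 1 linear model of all 22 arrays, and calls were made at an adjusted p (Benjamini-Hochberg) below 0.05. The 2 Rrp47 arrays lay close together, with a median absolute difference of 0.147 between them over all tested probe sets. That difference was 0.305 between the 2 GFP arrays and 0.435 between the 2 Rrp6 arrays, so the shared SE can be too small for comparisons that use these groups. Before normalization the trimmed mean signal was 246.1 and 258.6 on the Rrp47 arrays, against 176.1 and 164.2 on the GFP arrays. Spiked-in poly-A control RNAs had a mean log2 signal of 12.58 and 12.40 on the Rrp47 arrays, against 11.60 and 11.08 on the GFP arrays, and the Rrp47 values were above those of all other arrays. Control probe sets for 18S ribosomal RNA read 10.85 and 10.17 on the Rrp47 arrays, against 7.97 and 9.90 on the GFP arrays. The part of these technical differences in the results below was not tested.

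The probe set of the targeted gene was not lower on the arrays labelled Rrp47. That of Rrp47 (gene CG8928, on the X chromosome) read 11.83 and 10.82 on the arrays labelled Rrp47, against 9.69 and 9.59 on the GFP arrays. It was higher on both arrays labelled Rrp47 than on all other arrays, where the 18 remaining depletion arrays ran between 8.86 and 9.87. The difference from GFP was 1.69 ± 0.22 (3.22-fold higher, adjusted p = 4.7e-05). The arrays are therefore named here by their labels, and a direction drawn from them is that of the arrays labelled Rrp47, with no lower level of the target shown. In 3 of the 8 other targeted genes the probe set was likewise higher on the arrays of its own dsRNA than on all 20 others. Csl4 read 10.56 to 11.26 on the Csl4 arrays, against 7.76 to 9.58 elsewhere, Rrp40 read 11.02 to 11.22 on the Rrp40 arrays, against 8.19 to 10.27, and Ski6 read 10.05 to 10.82 on the Ski6 arrays, against 7.10 to 9.06. Dis3 was lower on both of its own arrays than on all 20 others (4.94 to 5.67 against 5.88 to 7.45), and the other 4 overlapped. Where the probes lie relative to the dsRNA is not given in the sources used here, so signal from the dsRNA itself and from the mRNA cannot be told apart, and these values do not give the level of the Rrp47 mRNA.

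**Figure D1:**
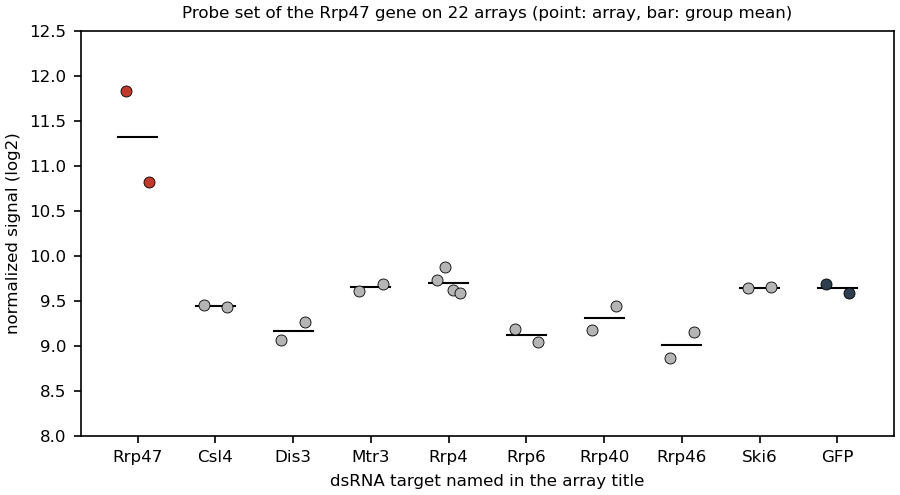
Normalized log2 signal of the Rrp47 probe set on each of the 22 arrays, by the dsRNA target in the array title; points are arrays and bars are group means. The 2 arrays labelled Rrp47, at 11.83 and 10.82, lie above all other arrays.

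Few other exosome genes passed the test. Of 19 tested subunits and cofactors, 3 rose and 0 fell, with a median of 0.30. Over all 7222 genes tested, 10.5% were called higher and 10.7% lower, and the median was 0.03. Apart from Rrp47 itself these were Trf4-1, a nuclear poly(A) polymerase of the kind that marks RNA for the exosome, and Nbr, a 3′ to 5′ exonuclease that trims small RNAs. Trf4-1 read 5.93 and 5.49 on the Rrp47 arrays, against 4.31 and 3.54 on the GFP arrays (1.79 ± 0.55, adjusted p = 0.029). Nbr read 8.58 and 8.68 against 8.14 and 7.68 on the GFP arrays (0.72 ± 0.21, adjusted p = 0.02). Neither call was kept without Rrp47 1 (adjusted p = 0.18 for Trf4-1 and 0.075 for Nbr), Rrp47 2 (0.071 and 0.12) or GFP 2 (0.19 and 0.2), which leaves 1 exosome gene called, against 3. Rrp6, the binding partner, read 7.64 and 7.52 on the Rrp47 arrays, against 7.71 and 8.13 on the GFP arrays, and did not pass the test (-0.34 ± 0.27, adjusted p = 0.42). Its value was -0.55 without GFP 1 and -0.12 without GFP 2, and it turned to 0.24 in the values as deposited (adjusted p = 0.53). The helicase Mtr4 was at 0.43 ± 0.16 (adjusted p = 0.075), and Dis3 at 0.56 ± 0.32 (adjusted p = 0.24).

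Across the array, 1904 of 9385 probe sets (20.3%) differed between Rrp47 and GFP, 942 higher and 962 lower. Of these, 475 were at least 2-fold higher and 437 at least 2-fold lower, and 185 and 110 passed 4-fold. In each of the 1904, the 2 Rrp47 arrays did not overlap the 2 GFP arrays, which a call with 2 arrays per group makes likely. The share without overlap over all 9385 probe sets was not counted, so this adds no support to the calls. Taken as 1 probe set per gene, 760 genes were higher and 775 lower. These are 10.5% and 10.7% of the 7222 genes tested, the shares to set beside every list count against GFP below. Without Rrp47 1 there were 954 calls and without Rrp47 2 there were 1043. The even split rests on normalization: in the values as deposited, where the median over all tested probe sets was 0.59, 3886 were higher and 193 lower. The medians of the 41 gene lists used below, taken relative to the median of all genes, moved by at most 0.15 between those values and the normalized ones.

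The 15 genes that rose most were low on the GFP arrays. CG4250 read 9.47 and 9.49 on the Rrp47 arrays, against 2.42 and 3.10 on the GFP arrays, a difference of 6.72 ± 0.26 (adjusted p = 3.2e-11), or 4.99 on the log2(value + 16) scale, which damps signals near background. CG18557 followed at 11.54 and 11.59 against 6.03 and 5.29 on the GFP arrays (5.91 ± 0.27, 60-fold, adjusted p = 1.4e-10). PPO1, a prophenoloxidase of the melanization response, read 8.69 and 8.32 against 3.09 and 2.76 on the GFP arrays (5.58 ± 0.29, adjusted p = 7.8e-10). For these genes the arrays of a pair differed by under 1 while the groups were more than 5 apart. SerT, the serotonin transporter, had the smallest error among the 15 highest genes: 10.85 and 10.76 on the Rrp47 arrays, against 5.46 and 5.57 on the GFP arrays (5.29 ± 0.15, 39.2-fold, adjusted p = 2.2e-13). The kinase PKD read 6.88 and 7.08 against 1.86 and 2.08 on the GFP arrays (5.01 ± 0.37, adjusted p = 6.1e-08, or 2.84 on the log2(value + 16) scale), so its size, too, depends on how background is treated. PKD and CG42331 were not tested when the filter was taken over the Rrp47 and GFP groups alone. They passed the filter used here through signal on the other arrays. The remaining genes of the 15 were Erasp (5.38), CG33462 (5.29), nau (5.16), CG4793 (5.16), CG5381 (5.07), CG43336 (4.77), lncRNA:CR43785 (4.55), CG15695 (4.52), CG42331 (4.39) and Nazo (4.38).

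For several of these the 2 GFP arrays disagreed. The muscle regulator nau, the fly relative of MyoD, read 8.56 and 8.44 on the Rrp47 arrays, against 1.95 and 4.72 on the GFP arrays. Nazo, an antiviral effector that acts downstream of Sting, read 9.21 and 8.93 against 2.84 and 6.55 on the GFP arrays, and its difference was 4.38 ± 0.67 with both GFP arrays and 2.53 without GFP 1. All 15 genes were called whichever single Rrp47 or GFP array was left out. In 13 of the 15, both Rrp47 arrays lay within the range of the 18 arrays of the other depletions, a share of 86.7% that is near the 83.1% over all 7222 genes. These ranges can be wide, and the 18 arrays ran between 2.30 and 8.97 for PPO1. In 6 of the 15 both GFP arrays lay below all 18, against 173 of the 760 genes called higher and 228 of all 7222 genes. CG4250, for example, ran between 6.71 and 9.80 on the 18 arrays. Ranking genes by their rise over GFP favours low GFP values, so these counts are not separate evidence.

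The genes that fell most were moderately expressed in the control. CG15096 read 1.70 and 1.98 on the Rrp47 arrays, against 7.27 and 8.38 on the GFP arrays (-5.99 ± 0.71, adjusted p = 1.3e-05). It lay near the floor of 1.69 on the Rrp47 arrays, so the size is set by the floor, and on the log2(value + 16) scale it was -3.64. The microtubule-binding protein gene ringer read 7.45 and 7.66 against 10.94 and 11.27 on the GFP arrays (-3.55 ± 0.30, adjusted p = 2.4e-07). The segmentation gene gsb (gooseberry) read 6.49 and 6.30 against 9.51 and 10.12 on the GFP arrays (-3.42 ± 0.22, adjusted p = 1.4e-08). In both ringer and gsb the pairs differed by under 1 and the groups by over 2. Pvf3, a growth factor of the PDGF and VEGF type, read 3.92 and 5.21 against 7.69 and 7.76 on the GFP arrays (-3.16 ± 0.33, adjusted p = 3.5e-06), and both Rrp47 arrays were below all 18 arrays of the other depletions (5.48 to 7.48). The rest of the 15 were CG32206 (-4.55), CG6472 (-4.35), tty (-3.92), Ccn (-3.69), slow (-3.63), CG1494 (-3.62), trio (-3.40), Gs2 (-3.24), Cpr64Ac (-3.22), CG12520 (-3.17) and the sodium channel gene ppk10 (-3.16). Ccn was at the floor on 1 Rrp47 array, so its size depends on the floor. Ccn and trio were not tested when the filter was taken over the Rrp47 and GFP groups alone. The calls of trio (adjusted p = 0.15 without Rrp47 2 and 0.17 without GFP 2) and Cpr64Ac (0.073 without Rrp47 2) rested on single arrays. In 10 of the 15 genes both GFP arrays lay above all 18 arrays of the other depletions. This held for 174 of the 775 genes called lower and 286 of all 7222 genes. Ranking genes by their fall from GFP favours high GFP values, so these counts are not separate evidence.

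**Figure D2:**
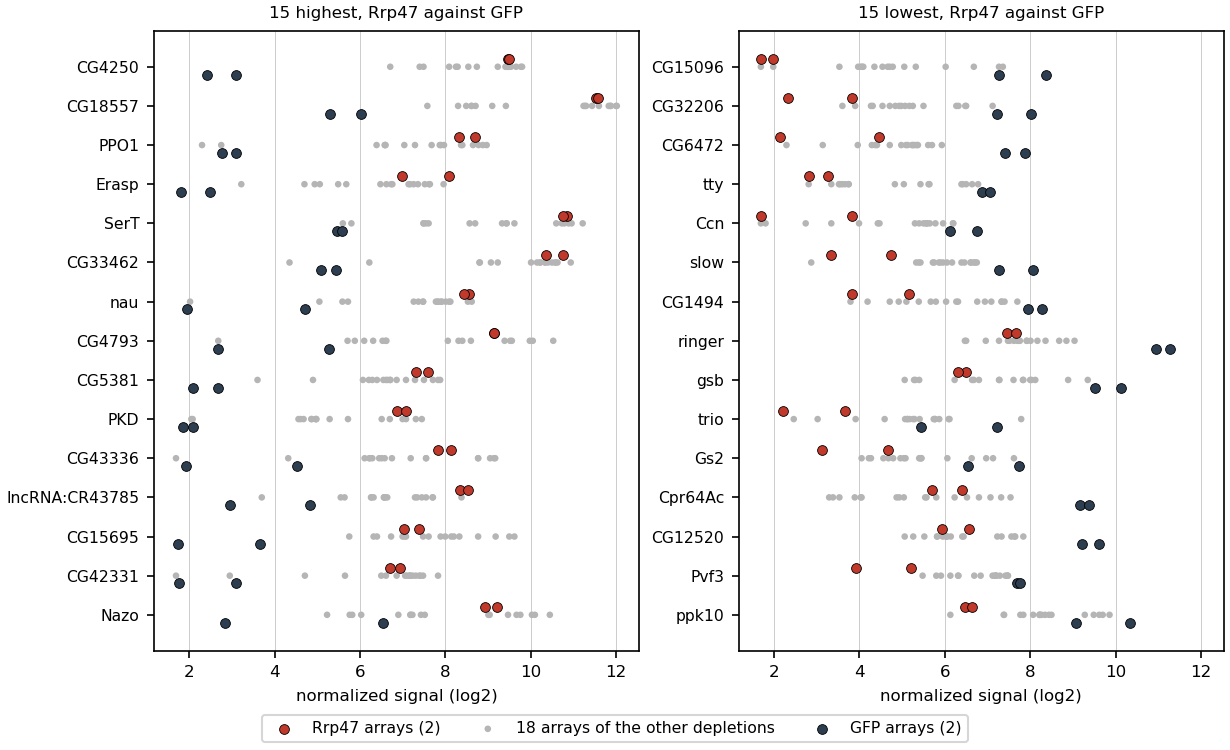
Normalized log2 signal of the 15 genes with the largest rise (left) and the largest fall (right) between Rrp47 and GFP; red points are the 2 Rrp47 arrays, dark points the 2 GFP arrays and grey points the 18 arrays of the other depletions. The Rrp47 and GFP points do not overlap, which the rule for choosing these genes required. The grey points spread widely in some genes, from 2.30 to 8.97 in PPO1.

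DNA replication genes rose together. Of 39 tested, 26 rose and 0 fell, with a median of 0.94 against 0.03 over all genes. The mean signal of the 39 was 8.84 and 8.82 on the Rrp47 arrays, against 7.79 and 8.08 on the GFP arrays, and the 18 arrays of the other depletions ran from 8.19 to 8.89, all above GFP. Mcm2 and Mcm5, subunits of the replicative helicase, rose by 1.74 ± 0.25 and 1.74 ± 0.30 (adjusted p = 9.8e-05 and 0.00055). Mcm2 read 9.89 and 9.95 on the Rrp47 arrays, against 8.10 and 8.25 on the GFP arrays. PolA1, the catalytic subunit of DNA polymerase alpha, read 7.99 and 8.12 against 6.22 and 6.55 on the GFP arrays (1.67 ± 0.20, adjusted p = 2.1e-05). Prim2, the large primase subunit, read 8.29 and 8.06 against 5.68 and 6.71 on the GFP arrays (1.98 ± 0.44, adjusted p = 0.0043), but only 1.46 without GFP 1 (adjusted p = 0.061). The count of 26 became 16 without Rrp47 2 and 14 without GFP 1, with 0 lower in both cases.

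Of 28 mitosis genes, 15 rose and 2 fell, with a median of 0.62. The Aurora kinase gene aurB read 9.31 and 9.18 on the Rrp47 arrays, against 7.16 and 7.71 on the GFP arrays (1.81 ± 0.36, adjusted p = 0.0017). The kinesin gene Klp67A was higher by 1.76 ± 0.26 (adjusted p = 0.00015), the cytokinesis gene tum by 1.71 ± 0.31 (adjusted p = 0.00076) and fzy, the fly Cdc20, by 1.48 ± 0.28 (adjusted p = 0.0011). The 2 that fell were CycB, the mitotic cyclin, at 10.43 and 10.37 on the Rrp47 arrays against 10.95 and 11.13 on the GFP arrays (-0.64 ± 0.15, adjusted p = 0.0066), and the microtubule depolymerase gene Klp10A (-0.49 ± 0.16, adjusted p = 0.043). CycB was not called without Rrp47 2 (adjusted p = 0.053) or GFP 2 (0.06), nor Klp10A without any 1 of the 4 arrays (0.075 to 0.18), and Klp10A turned to 0.06 in the values as deposited. The 15 became 8 without Rrp47 1, 10 without Rrp47 2 and 5 without GFP 1. GFP 1 had the lower mean signal of the 28 genes, 8.18 against 8.50 on GFP 2, and both Rrp47 arrays stood at 9.02 and 9.01. The list of cyclins and other cell cycle regulators moved less, with 3 of 18 higher and 1 lower (median 0.26), against 10.5% and 10.7% of all genes. It held no riser that was called without Rrp47 1. Of 4 tested histone genes 2 rose, both for variants and not for the replication-dependent class: cid, the centromeric histone (1.08 ± 0.25, adjusted p = 0.0063), and His2Av (0.80 ± 0.19, adjusted p = 0.0068). His2Av had an adjusted p of 0.07 without Rrp47 2 and 0.091 without GFP 1, and cid had 0.067 without GFP 1. In each of these removals 1 histone gene was called, without GFP 1 another than these 2.

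**Figure D3:**
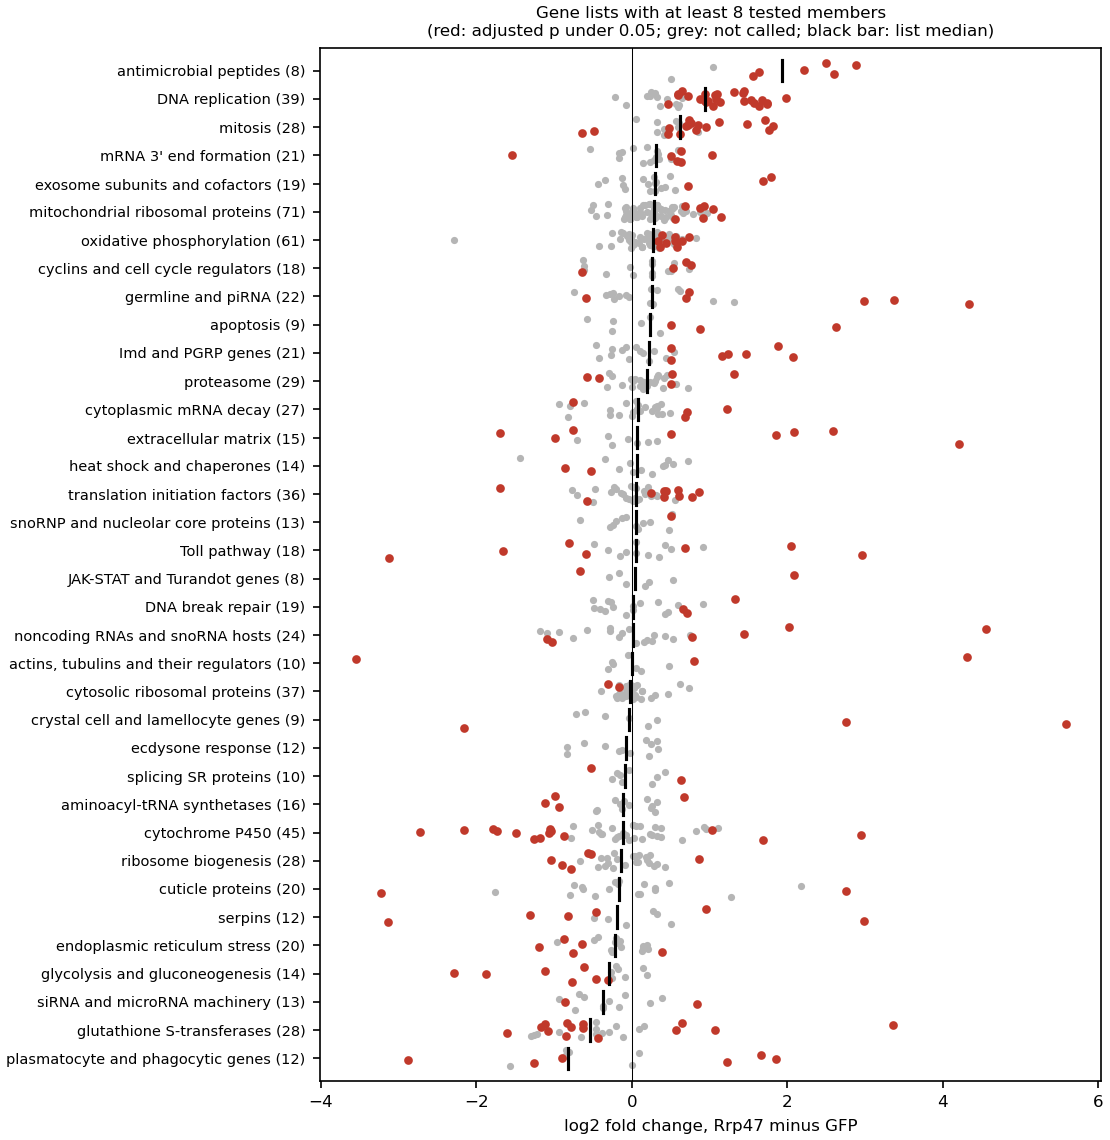
Log2 fold change (Rrp47 minus GFP) of every tested member of each gene list with at least 8 tested members, listed by median; red points were called, grey points were not, and the black bar is the list median. Antimicrobial peptide, DNA replication and mitosis genes lie furthest to the right (medians 1.93, 0.94 and 0.62) and plasmatocyte and glutathione S-transferase genes furthest to the left (-0.82 and -0.54), on the normalized scale.

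Among immune genes the effectors moved most. Of 8 tested antimicrobial peptide genes, 6 rose and 0 fell, with a median of 1.93. With the filter taken over the Rrp47 and GFP groups alone, 7 were tested and 5 rose, and Def was the gene not tested. These peptides are secreted against bacteria and fungi, and S2 cells make them on immune stimulation. Mtk (metchnikowin) read 9.18 and 9.35 on the Rrp47 arrays, against 6.52 and 6.24 on the GFP arrays (2.88 ± 0.42, 7.37-fold, adjusted p = 0.00013). Drs (drosomycin) read 12.27 and 12.26 against 10.05 and 10.03 on the GFP arrays (2.22 ± 0.31, 4.66-fold, adjusted p = 8.5e-05). The infection-induced gene edin read 11.45 and 11.26 against 8.78 and 8.93 on the GFP arrays (2.50 ± 0.39, adjusted p = 0.00023). In all 3 the pairs were close and the groups far apart. Def (defensin) was near background at 5.54 and 5.96 against 3.90 and 2.40 on the GFP arrays (2.60 ± 0.59, adjusted p = 0.0052), and its call was lost without Rrp47 2 (adjusted p = 0.051) and without GFP 2 (0.075). Without Rrp47 2 the list had 4 risers in place of 6.

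Of 21 genes of the Imd pathway and the peptidoglycan recognition proteins (PGRP), which sense bacteria, 7 rose and 0 fell, with a median of 0.22. Their mean signal was 8.91 and 9.02 on the Rrp47 arrays, against 8.55 and 8.52 on the GFP arrays. The 18 arrays of the other depletions ran from 8.69 to 9.06, all above both GFP arrays, so the rise was not particular to Rrp47. The list had 4 risers without Rrp47 1, Rrp47 2 or GFP 2. The 4 that moved most include 2 inhibitors of the pathway. The feedback inhibitor pirk read 10.23 and 10.12 on the Rrp47 arrays, against 8.42 and 8.16 on the GFP arrays (1.88 ± 0.22, adjusted p = 1.5e-05). PGRP-LF, a receptor that dampens Imd signalling, read 8.55 and 8.64 against 6.92 and 7.33 on the GFP arrays (1.47 ± 0.17, adjusted p = 1.2e-05). PGRP-LA was higher by 2.07 ± 0.33 (adjusted p = 0.00024), or 1.22 without GFP 1. The secreted amidase gene PGRP-SB1 was higher by 1.24 ± 0.38 (adjusted p = 0.03) and lost its call without any 1 of the 4 arrays (adjusted p 0.077 to 0.17).

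The Toll pathway list split, with 3 of 18 genes higher and 4 lower, against 10.5% and 10.7% of all genes (median 0.05, and 6 higher and 2 lower as deposited). Higher were the extracellular components GNBP3, a receptor for fungal glucans, and grass, a protease upstream of the Toll ligand. GNBP3 read 9.04 and 9.39 on the Rrp47 arrays, against 5.87 and 6.63 on the GFP arrays (2.96 ± 0.23, adjusted p = 9.4e-08), and grass 10.17 and 10.26 against 8.28 and 8.05 (2.05 ± 0.22, adjusted p = 3.5e-06). Lower were 2 other Toll-family receptors, 18w at 5.31 and 5.58 against 8.27 and 8.86 on the GFP arrays (-3.12 ± 0.41, adjusted p = 4.9e-05) and Tollo (-1.65 ± 0.32, adjusted p = 0.0013). The transcription factor dl rose (0.69 ± 0.20, adjusted p = 0.02) and the adaptors tub (-0.81 ± 0.22, adjusted p = 0.016) and Myd88 (-0.59 ± 0.16, adjusted p = 0.016) fell, but none of these 3 was called without Rrp47 1 (adjusted p = 0.12, 0.1 and 0.081) or without Rrp47 2 (0.076, 0.064 and 0.083). Without GFP 1, dl had an adjusted p of 0.11 and Myd88 of 0.15 with its value at -0.39, and without GFP 2, tub had 0.11. The list had 2 risers and 2 genes that fell without Rrp47 1, and the same counts without Rrp47 2. Among 8 JAK-STAT and Turandot genes 1 rose and 1 fell, and among 7 Sting and antiviral genes Nazo rose and pst fell (-0.67 ± 0.16, adjusted p = 0.0073, or 0.052 without Rrp47 1). The JAK-STAT calls were TotC (2.08 ± 0.58, adjusted p = 0.017, with GFP 1 at the floor, and 1.03 without GFP 1 or 3.12 without GFP 2) and vir-1 (-0.67 ± 0.20, adjusted p = 0.025). Neither was kept without Rrp47 1, Rrp47 2 or GFP 1. TotC was not tested when the filter was taken over the Rrp47 and GFP groups alone.

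Blood cell genes moved in both directions. As a check of the label, 10 of 11 hemocyte markers had a mean signal above the filter on the Rrp47 arrays and 7 on the GFP arrays, with summed linear signals of 15800 to 17600 and 25900 to 35600. Of 12 plasmatocyte and phagocytic genes 3 rose and 3 fell, with a median of -0.82 (4 higher and 1 lower as deposited). In bulk RNA, fewer cells of a type and less RNA per cell cannot be told apart. Hml (hemolectin), a clotting protein and the standard plasmatocyte marker, read 9.66 and 9.82 on the Rrp47 arrays, against 12.09 and 13.14 on the GFP arrays (-2.87 ± 0.42, 7.33-fold lower, adjusted p = 0.00012). The peroxidasin gene Pxn read 5.07 and 5.21 against 3.37 and 3.20 on the GFP arrays (1.86 ± 0.28, adjusted p = 0.00016). With the filter taken over the Rrp47 and GFP groups alone, Pxn was not tested, and 2 of 11 tested genes of the list rose. Pxn passed the filter used here through signal on the other arrays. The 4 other calls, eater (1.66), He (1.22), Fer2LCH (-1.25) and crq (-0.90), each rested on single arrays: eater was at 0.68 without GFP 1 (adjusted p = 0.19) and 2.64 without GFP 2, with an adjusted p of 0.052 without Rrp47 1 and 0.083 without Rrp47 2. He had an adjusted p of 0.12 without Rrp47 1, 0.064 without Rrp47 2 and 0.1 without GFP 1. Fer2LCH had 0.12 without Rrp47 2 and 0.08 without GFP 1, and crq had 0.16 without Rrp47 1 and 0.13 without GFP 2. The list had 1 riser without Rrp47 1, Rrp47 2 or GFP 1, and 2 genes that fell without Rrp47 1, Rrp47 2 or GFP 2.

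The crystal cell genes PPO1 and PPO2 both rose. PPO2 read 6.87 and 6.82 on the Rrp47 arrays, against 3.17 and 5.01 on the GFP arrays (2.76 ± 0.81, adjusted p = 0.024), but 1.83 without GFP 1 (adjusted p = 0.2), and it was not called without Rrp47 1 (0.11) or Rrp47 2 (0.098). The other 2 crystal cell markers were below the filter and not tested: the transcription factor gene lz read 3.75 and 3.52 on the Rrp47 arrays, against 4.51 and 3.72 on the GFP arrays, and peb read 1.69 and 2.19 against 2.00 and 2.57. The summed signal of these 4 markers was 448 to 546 on the Rrp47 arrays, nearly all of it from PPO1 and PPO2, against 44.3 to 58.1 on the GFP arrays, and that of 4 lamellocyte markers 3110 to 3320 against 4040 to 5080. Of the 9 tested genes of the crystal cell and lamellocyte list, 2 rose and 1 fell, with a median of -0.04. The integrin gene ItgaPS4, a lamellocyte marker, read 4.94 and 4.93 against 7.18 and 7.01 on the GFP arrays (-2.16 ± 0.54, adjusted p = 0.0088, and 0.054 without Rrp47 1 or 0.052 without Rrp47 2). Neuronal and muscle lists each held 1 gene that rose and 1 that fell among 3 and 4 tested: SerT with brp, the presynaptic protein Bruchpilot (-2.70 ± 0.62, adjusted p = 0.0052), and nau with Mf, myofilin (-2.70 ± 0.56, adjusted p = 0.0025). brp was not called without Rrp47 1 (adjusted p = 0.054) or GFP 2 (0.071), nor Mf without Rrp47 2 (0.053). Summed marker signals were 226 to 235 against 274 to 467 on the GFP arrays for neuron, 32.6 to 39.8 against 130 to 132 for muscle, and 56.4 to 59.8 against 71.2 to 93.5 for fat body. Their part in these results was not tested.

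Extracellular matrix genes also split, with 5 of 15 higher and 3 lower (7 higher and 0 lower as deposited). Glt (glutactin) read 10.06 and 10.37 on the Rrp47 arrays, against 5.29 and 6.72 on the GFP arrays (4.21 ± 0.33, 18.5-fold, adjusted p = 1.5e-07). The perlecan gene trol read 7.73 and 7.98 against 5.36 and 5.18 on the GFP arrays (2.59 ± 0.27, adjusted p = 3.1e-06), and the collagen-like gene prc was higher by 2.09 ± 0.47 (adjusted p = 0.0045, and 0.056 without Rrp47 1). Lower were Tig (tiggrin), an integrin ligand (-1.69 ± 0.51, adjusted p = 0.025), Plod, a collagen-modifying enzyme (-0.98 ± 0.30, adjusted p = 0.028), and vkg, a collagen IV chain (-0.76 ± 0.18, adjusted p = 0.0061). None of these 3 was called without Rrp47 1 (adjusted p = 0.15, 0.14 and 0.075), which left 0 lower genes. Tig and Plod were not called without Rrp47 2 (0.07 and 0.092) or GFP 2 (0.18 and 0.083), nor Plod without GFP 1 (0.1), so 1 lower gene was left without Rrp47 2 or GFP 2 and 2 without GFP 1. Among 12 serpins 2 rose and 4 fell (5 higher and 1 lower as deposited), against the same shares over all genes. Spn31A read 9.63 and 9.34 against 6.60 and 6.42 on the GFP arrays (2.98 ± 0.22, adjusted p = 8.2e-08), and Spn28Dc 4.99 and 5.67 against 8.58 and 8.35 (-3.13 ± 0.49, adjusted p = 0.00023). These 2 were called whichever array was left out, and the serpin counts otherwise ranged down to 1 higher and 1 lower.

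Of 22 germline and piRNA genes, which act in egg and sperm cells and in transposon silencing, 5 rose and 1 fell. Over all genes 10.5% were higher and 10.7% lower. AGO3, a piRNA-binding Argonaute, read 5.61 and 6.45 on the Rrp47 arrays and was at the floor on both GFP arrays, so it was at least 20.3-fold higher. With the filter taken over the Rrp47 and GFP groups alone, AGO3 was not tested, and 4 of 20 tested genes of the list rose. AGO3 passed the filter used here through signal on the other arrays. The piRNA cluster factor del (deadlock) read 8.82 and 8.86 against 4.99 and 5.95 on the GFP arrays (3.37 ± 0.31, adjusted p = 6.8e-07). The differentiation gene bam read 6.45 and 6.19 against 3.69 and 2.98 on the GFP arrays (2.99 ± 0.43, adjusted p = 0.00011). All 3 lay within the range of the 18 arrays of the other depletions. The list had 3 risers without Rrp47 1 or Rrp47 2, and no gene that fell without any 1 of the 4 arrays. The 1 that fell, mael, was at -0.59 ± 0.19 (adjusted p = 0.038, and 0.074 to 0.2 with an array left out). Summed germline marker signal was 988 to 1120 on the Rrp47 arrays, against 510 to 1110 on the GFP arrays. In the siRNA and microRNA machinery Tudor-SN rose (0.84 ± 0.12, adjusted p = 8.4e-05) and blanks, a dsRNA-binding protein, fell (-0.86 ± 0.18, adjusted p = 0.0028), among 13 tested.

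The glycolysis list and the detoxification lists held more genes that fell than genes that rose after normalization, but not in the values as deposited. Of 14 glycolysis and gluconeogenesis genes 0 rose and 7 fell, with a median of -0.29, while in the values as deposited 3 were higher and 1 lower and the list median lay 0.33 below that of all genes. Pfk, the rate-limiting phosphofructokinase, read 10.11 and 9.78 on the Rrp47 arrays, against 12.49 and 11.96 on the GFP arrays (-2.28 ± 0.21, 4.85-fold lower, adjusted p = 1e-06). Pgi, which makes the substrate of that step, read 11.44 and 11.32 against 12.76 and 12.23 on the GFP arrays (-1.12 ± 0.15, adjusted p = 5.1e-05). The gluconeogenic enzyme gene Pepck2 was at -1.87 ± 0.51 (adjusted p = 0.015). It was at -1.08 without GFP 1 (adjusted p = 0.19), and its call was lost without Rrp47 1 (0.1) and Rrp47 2 (0.054). The list had 4 genes that fell without GFP 1, and 4 after scaling to a common median. The 14 genes had a mean of 10.39 and 10.35 on the Rrp47 arrays, against 11.12 and 10.78 on the GFP arrays.

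Glutathione S-transferases, which conjugate toxins and oxidized lipids, had 4 of 28 higher and 10 lower with a median of -0.54. In the values as deposited 5 were higher and 3 lower, with the list median 0.60 below that of all genes. GstD7 read 8.54 and 8.05 on the Rrp47 arrays, against 9.88 and 9.90 on the GFP arrays (-1.60 ± 0.23, adjusted p = 0.00012), and GstE11 was lower at -1.07 ± 0.17 (adjusted p = 0.00028). GstE7 was at -1.16 ± 0.19 (adjusted p = 0.00041), or -0.76 without GFP 1. GstO3 went the other way, at 10.39 and 10.33 against 7.53 and 6.47 on the GFP arrays (3.36 ± 0.26, 10.3-fold, adjusted p = 9.4e-08). The list mean was below both GFP arrays on both Rrp47 arrays (8.84 and 8.93, against 9.45 and 9.11) and on all 18 arrays of the other depletions (8.66 to 9.08).

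Of 45 cytochrome P450 genes, taken by name and so including the cyclophilins Cyp40 and Cyp1, 3 were higher and 11 lower (median -0.11; 11 higher and 4 lower as deposited). Cyp4p1 read 5.61 and 6.16 on the Rrp47 arrays, against 8.41 and 8.80 on the GFP arrays (-2.72 ± 0.28, adjusted p = 3e-06), and Cyp6a9 5.72 and 5.89 against 7.56 and 7.61 (-1.78 ± 0.33, adjusted p = 0.0011). Cyp12a4 was higher by 1.69 ± 0.18 (adjusted p = 5.4e-06). Cyp4ac2 read 6.62 and 6.75 against 2.23 and 5.25 on the GFP arrays (2.95 ± 0.72, adjusted p = 0.008), with 1.43 and no call without GFP 1 (adjusted p = 0.13), 4.46 without GFP 2 and no call without Rrp47 2 (0.053). The counts were 6 lower without Rrp47 1, and 5 higher and 7 lower without GFP 2. Among 20 cuticle protein genes 1 rose and 1 fell, and neither call was kept in every single-array removal. With the filter taken over the Rrp47 and GFP groups alone, 18 cuticle genes were tested and 0 rose. Of 12 ecdysone response genes 0 were called.

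**Figure D4:**
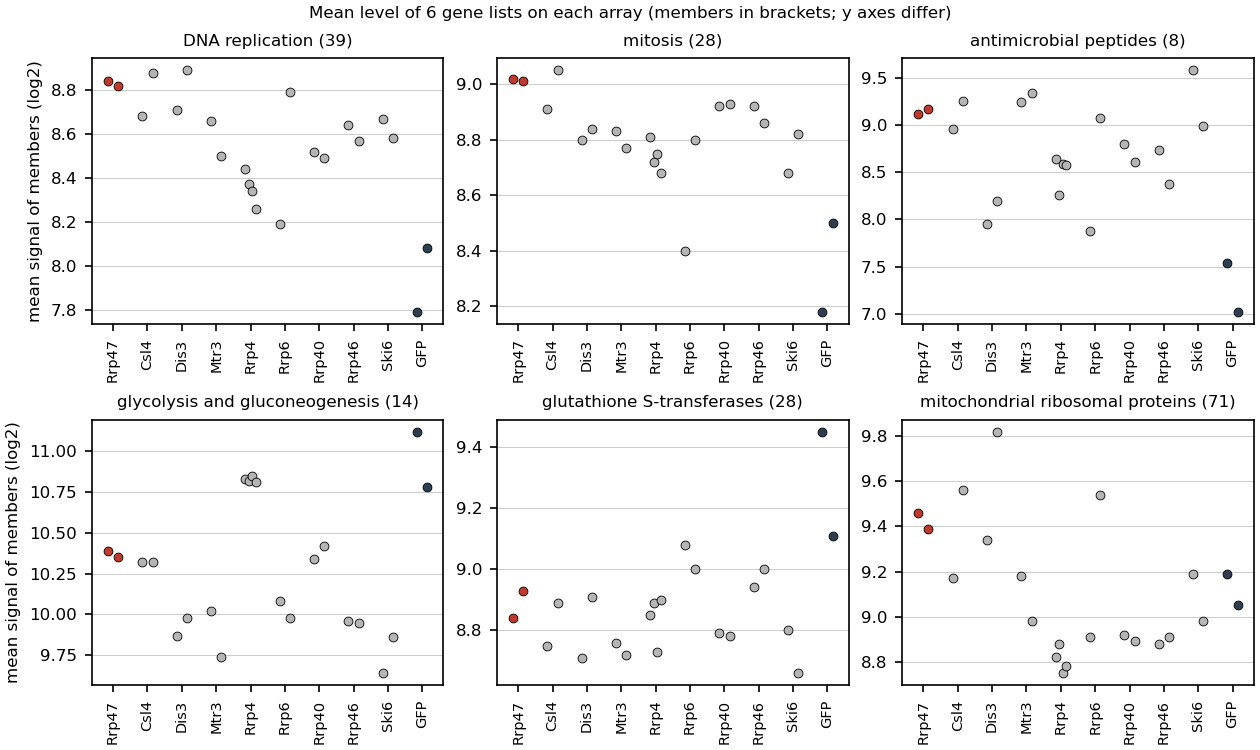
Mean normalized log2 signal over the tested members of 6 gene lists on each array, by dsRNA target; red points are Rrp47, grey points the other depletions and dark points GFP, and the y axes differ between panels. For DNA replication and antimicrobial peptides all 20 depletion arrays lie above both GFP arrays, and for glutathione S-transferases all lie below, on the normalized scale.

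Lists of mitochondrial and translation genes had small medians. Of 71 mitochondrial ribosomal protein genes 7 rose and 0 fell (median 0.29), led by mRpL2 (1.15 ± 0.36, adjusted p = 0.033) and mRpS14 (1.04 ± 0.29, adjusted p = 0.019). The share called was close to that of all genes, 10.5%, and the count was 1 without Rrp47 1, 3 without Rrp47 2 and 2 without GFP 2. Neither mRpL2 (adjusted p = 0.21 without Rrp47 1, 0.071 without Rrp47 2, and 0.28 with a value of 0.77 without GFP 2) nor mRpS14 (0.13 without Rrp47 1, 0.059 without Rrp47 2, 0.061 without GFP 1 and 0.082 without GFP 2) kept its call. Of 61 oxidative phosphorylation genes 9 rose and 0 fell (median 0.27), and the count was 1 without Rrp47 1 or without Rrp47 2, 2 without GFP 1 and 5 without GFP 2. Of 36 translation initiation factors 8 rose and 2 fell (median 0.06). Among those that rose, eIF3k, a subunit of the initiation scaffold eIF3, read 12.67 and 12.78 on the Rrp47 arrays, against 11.82 and 11.92 on the GFP arrays (0.86 ± 0.13, adjusted p = 0.00015), and eIF3a, another subunit, 11.74 and 11.93 against 11.04 and 11.06 (0.78 ± 0.10, adjusted p = 4e-05). Lower were eIF4H2 (-1.69 ± 0.33, adjusted p = 0.0017) and eIF1 (-0.57 ± 0.11, adjusted p = 0.0012), of which eIF1 turned to 0.11 in the values as deposited. There were 2 risers without Rrp47 1, 3 without Rrp47 2 and 5 without GFP 1.

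Of 37 cytosolic ribosomal protein genes 0 rose and 2 fell (27 higher as deposited), namely RpS7 (-0.30 ± 0.05, adjusted p = 0.00028) and RpS26 (-0.17 ± 0.05, adjusted p = 0.018), which turned to 0.23 and 0.45 in the values as deposited. RpS26 was not called without Rrp47 1 (adjusted p = 0.1), Rrp47 2 (0.083) or GFP 2 (0.095), and the count was then 1. Ribosome biogenesis genes had 1 of 28 higher and 5 lower (median -0.14; 10 higher and 0 lower as deposited). The highest member, Rrp1 (0.86 ± 0.15, adjusted p = 0.0006), encodes a DNA repair endonuclease in Drosophila, and pes in the same list is a scavenger receptor gene. CG11920 was lower at -0.78 ± 0.16 (adjusted p = 0.0024). The list had 3 lower genes without Rrp47 1, GFP 1 or GFP 2 and 1 without Rrp47 2. The helicase gene rept was the 1 snoRNP gene called of 13 (0.50 ± 0.15, adjusted p = 0.023), and with 1 Rrp47 or GFP array left out its adjusted p was 0.072 to 0.15.

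Among RNA processing genes, 5 of 21 in mRNA 3′ end formation rose and 1 fell (median 0.31). IntS6, a subunit of the Integrator complex, read 5.47 and 5.90 on the Rrp47 arrays, against 7.26 and 7.19 on the GFP arrays (-1.54 ± 0.33, adjusted p = 0.0032). Its fellow subunit IntS4 rose by 1.03 ± 0.30 (adjusted p = 0.021), or 0.65 without GFP 2 (adjusted p = 0.23), and was not called without Rrp47 1 (0.12) or Rrp47 2 (0.077). The list had 1 riser without Rrp47 1 or without Rrp47 2 and 2 without GFP 2. Of 27 cytoplasmic decay genes, 3 rose and 1 fell, near or below the 10.5% and 10.7% over all genes. The gene that fell was the ribosome rescue factor pelo, at 9.19 and 9.32 against 10.04 and 9.98 on the GFP arrays (-0.76 ± 0.15, adjusted p = 0.0016). Rai1, a decapping enzyme for faulty caps, read 9.64 and 9.63 against 8.64 and 8.19 on the GFP arrays (1.22 ± 0.28, adjusted p = 0.0052, and 0.061 without GFP 2). Without Rrp47 1, Rrp47 2 or GFP 2 the list had 1 riser. Of 24 tested noncoding RNAs and snoRNA host genes, from 92 with a probe set of their own, 4 rose and 2 fell. With the filter taken over the Rrp47 and GFP groups alone, 22 were tested, with 3 higher and 2 lower. The only one called in every single-array removal was lncRNA:CR43785, at 8.35 and 8.53 against 2.96 and 4.83 on the GFP arrays (4.55 ± 0.62, adjusted p = 5.9e-05, or 3.48 on the log2(value + 16) scale). The list had 1 riser and 0 genes that fell without Rrp47 1 or Rrp47 2, and 2 risers and 3 genes that fell without GFP 2.

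Stress and death genes gave short lists, to be set beside the 10.5% of all genes called higher and 10.7% called lower. Of 9 apoptosis genes 3 rose and 0 fell. Their mean signal was 9.67 and 9.78 on the Rrp47 arrays and 9.30 and 9.34 on the GFP arrays. It ran from 9.33 to 10.02 on the 18 arrays of the other depletions, 17 of them above both GFP arrays. The Bcl-2 family gene Debcl read 10.61 and 10.60 on the Rrp47 arrays, against 8.21 and 7.76 on the GFP arrays (2.62 ± 0.18, 6.15-fold, adjusted p = 2.2e-08). The caspase gene Dcp-1 rose by 0.88 ± 0.19 (adjusted p = 0.0031), and Diap2 by 0.50 ± 0.15 (adjusted p = 0.028, and 0.094 without Rrp47 1, 0.15 without Rrp47 2 and 0.23 without GFP 2). Of 14 heat shock and chaperone genes 0 rose and 2 fell (4 higher and 0 lower as deposited), among them the mitochondrial chaperone gene Hsc70-5 at 11.80 and 11.70 against 12.67 and 12.55 on the GFP arrays (-0.86 ± 0.10, adjusted p = 7.2e-06). This list had 4 risers and 1 gene that fell without GFP 1, 1 that fell without Rrp47 1 and 3 without GFP 2, and its mean was 11.08 on GFP 1 and 10.08 on GFP 2. Of 20 endoplasmic reticulum stress genes 1 rose and 4 fell (8 higher and 0 lower as deposited), with Edem2 at 6.93 and 6.93 against 8.15 and 8.09 on the GFP arrays (-1.19 ± 0.18, adjusted p = 0.00018). Without Rrp47 1 there were 2 lower and 0 higher genes, and without Rrp47 2 also 0 higher. Of 19 DNA break repair genes 3 rose, led by the exonuclease gene tos (1.33 ± 0.21, adjusted p = 0.00024), and 1 without Rrp47 1, Rrp47 2 or GFP 1. Of 16 aminoacyl-tRNA synthetase genes 1 rose (0 without Rrp47 1, Rrp47 2 or GFP 2) and 3 fell (7 higher and 1 lower as deposited), with ValRS at 10.35 and 10.19 against 11.28 and 11.21 on the GFP arrays (-0.98 ± 0.13, adjusted p = 6.1e-05). Of 29 proteasome genes 3 rose and 2 fell, with 0 risers without Rrp47 1, 1 without Rrp47 2 or GFP 1, and 1 gene that fell in each removal. Among 10 actins, tubulins and their regulators 2 rose and ringer fell, with sn (fascin), an actin bundler, at 7.62 and 7.05 against 2.61 and 3.43 on the GFP arrays (4.31 ± 0.48, adjusted p = 6.4e-06, or 2.87 on the log2(value + 16) scale).

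The second comparison set the Rrp47 arrays against the mean of the 8 other depletion groups. The GFP arrays were not part of this difference, though they were in the shared normalization and error estimate. It called 1832 of 9385 probe sets (19.5%), 872 higher and 960 lower. The changes were smaller than against GFP, with 61 at least 2-fold higher and 310 at least 2-fold lower. At the gene level 10.5% were higher and 9.82% lower. A fit on these groups alone called 1987. These calls depended on having both Rrp47 arrays: 17 were left without Rrp47 1 and 106 without Rrp47 2, in fits that assume the lone array varies like those of the other groups. In the values as deposited 1654 were higher and 342 lower.

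Among genes with 1 symbol, Rrp47 itself was furthest above the other depletions (a probe set without a single symbol stood higher, at 2.22). It read 11.83 and 10.82 against group means of at most 9.70 (1.95 ± 0.17, adjusted p = 7.5e-06), and it was called both without Rrp47 1 and without Rrp47 2. The sodium/proton exchanger gene Nha2 read 7.69 and 7.69 on the Rrp47 arrays, against a mean of 5.83 over the other groups (1.86 ± 0.41, adjusted p = 0.0099), and lncRNA:CR43785 was at 1.71 ± 0.46 (adjusted p = 0.021). Another exchanger gene, Nhe2, was lowest among genes with 1 symbol, at 1.93 and 2.58 against a range of 3.48 to 6.27 on the 18 arrays (-3.13 ± 0.44, adjusted p = 0.00088). Its Rrp47 values were near the floor of 1.69, and on the log2(value + 16) scale the difference was -1.52. CG11693 read 3.41 and 3.63 against 5.57 to 6.57 on the 18 arrays (-2.56 ± 0.31, adjusted p = 0.0003, or -1.61 on the log2(value + 16) scale). Both Rrp47 arrays lay below all 18 in these 2 genes, and CG11693 was called both without Rrp47 1 and without Rrp47 2. DIP1 read 6.86 and 8.02 against a mean of 9.90 over the other groups (-2.46 ± 0.56, adjusted p = 0.011). Csl4 2 (7.63), Dis3 2 (7.83) and Rrp6 2 (7.85) lay below Rrp47 2 in DIP1. The Rrp47 arrays also overlapped the 18 in lncRNA:CR43785, and in CG16888 and CG5773 listed below (highest of the 18 at 8.38, 8.17 and 7.34). On the low side they overlapped in CG15096, zye, CG15356 and Cwc25 (lowest of the 18 at 1.69, 5.83, 3.61 and 3.67). Without Rrp47 1 the adjusted p was 0.18 for Nha2, 0.22 for lncRNA:CR43785, 0.062 for Nhe2 and 0.24 for DIP1, and without Rrp47 2 it was 0.11, 0.17, under the threshold for Nhe2, and 0.064. The remaining genes of the rule were CG16888 (1.68), Crtp (1.60), yellow-f2 (1.47), CG30377 (1.45) and CG5773 (1.44) on the high side, and CG11313 (-3.05), CG15096 (-2.83), zye (-2.38), CG15356 (-2.32) and Cwc25 (-2.30) on the low side. Each of these lost its call without Rrp47 1, Rrp47 2 or both.

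Matrix genes were lower than the mean of the other depletions in 8 of 15 cases after normalization, and in 2 as deposited. Their list mean was 9.89 on Rrp47 1, against a median of 10.53 over the 18 arrays. The Rrp6 arrays read 9.92 and 9.4, and Dis3 2 read 9.83. The plasmatocyte list mean was 9.05 and 9.13 on the Rrp47 arrays, against a median of 10.04. Csl4 2 (9.05), Dis3 2 (8.73) and Rrp6 2 (8.89) were as low or lower. Low list means were thus not particular to the Rrp47 arrays. Of the 15 extracellular matrix genes 2 were higher and 8 lower (median -0.76, against 0.08 over all genes), and as deposited 3 were higher and 2 lower (median -0.45, against 0.17 over all genes), and of 12 plasmatocyte genes 0 were higher and 5 lower (median -0.60). Without Rrp47 1 none of these was called, and without Rrp47 2 there was 1 lower in each list, while the list medians stayed at -0.67 and -0.71, and at -0.82 and -0.60. Papilin (Ppn) read 9.43 and 9.74 on the Rrp47 arrays, against a median of 11.48 over the 18 arrays (-1.42 ± 0.34, adjusted p = 0.013, and 0.22 without Rrp47 1 or 0.095 without Rrp47 2). Pxn read 5.07 and 5.21 against 5.35 to 7.84 (-1.26 ± 0.21, adjusted p = 0.0026, and 0.097 without Rrp47 1), so it lay between GFP and the other depletions. Hml read 9.66 and 9.82 against a median of 11.51 (-1.47 ± 0.31, adjusted p = 0.0087, and 0.18 without Rrp47 1 or 0.085 without Rrp47 2). Of 36 translation initiation factors 12 were higher and 5 lower, where 10.5% of all genes were higher and 9.82% lower. These calls were not kept without Rrp47 1 or without Rrp47 2. The subunits eIF3k (0.61 ± 0.10, adjusted p = 0.0016) and eIF3c (0.60 ± 0.12, adjusted p = 0.0073) were higher and eIF4B (-0.96 ± 0.22, adjusted p = 0.011) lower, with adjusted p of 0.055, 0.15 and 0.21 without Rrp47 1 and 0.057, 0.09 and 0.091 without Rrp47 2. Of 39 DNA replication genes 2 were higher and 2 lower than in the other depletions (median 0.31), with 0 called without Rrp47 1 or Rrp47 2 and 12 higher without Rrp6 2.

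The third comparison set Rrp47 against Rrp6, the exonuclease it binds. It called 1820 of 9385 probe sets (19.4%), 960 higher and 860 lower. Scaling changed the split: 1378 were higher and 367 lower after scaling to a common median, where the median of all probe sets was 0.20, and 4946 and 138 in the values as deposited, where it was 0.76. With only these 4 arrays in the fit 331 probe sets were called, and 967 and 1015 were called without Rrp47 1 and Rrp47 2. At the gene level 11.0% were higher and 9.50% lower.

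PPO1, SerT and PKD were higher on the Rrp47 arrays than on the Rrp6 arrays, as they were against GFP. PPO1 read 8.69 and 8.32 on the Rrp47 arrays, against 2.30 and 2.75 on the Rrp6 arrays (5.97 ± 0.29, adjusted p = 5.9e-10, or 4.12 on the log2(value + 16) scale). SerT read 10.85 and 10.76 against 5.60 and 5.80 on the Rrp6 arrays (5.10 ± 0.15, 34.3-fold, adjusted p = 4.1e-13). PKD read 6.88 and 7.08 against 2.05 and 2.08 on the Rrp6 arrays (4.92 ± 0.37, adjusted p = 9.2e-08, or 2.82 on that scale). It was not tested when the filter was taken over the Rrp47 and Rrp6 groups alone. In PPO1, SerT and PKD the Rrp6 arrays stood near the GFP values given above, and the Rrp47 arrays stood well above both. So did the arrays of the remaining depletions, at 6.39 to 8.97 for PPO1, 7.49 to 11.22 for SerT and 4.56 to 7.45 for PKD. The higher level is thus not particular to the Rrp47 arrays. CG33462 (5.27), CG43336 (4.99) and CG6357 (4.93) completed the high side, the last 2 with 1 Rrp6 array at the floor. CG15096 was lowest at 1.70 and 1.98 against 7.27 and 7.36 on the Rrp6 arrays (-5.48 ± 0.71, adjusted p = 3.3e-05, or -3.16 on that scale). Like PKD, CG15096 was not tested when the filter was taken over these groups alone. CG15347 read 8.85 and 8.77 against 13.02 and 12.49 on the Rrp6 arrays (-3.95 ± 0.28, 15.4-fold lower, adjusted p = 5.6e-08), with GFP at 10.56 and 9.89. The gene zye (-3.50) read 6.03 and 5.95 on the Rrp47 arrays, against 10.08 and 8.90 on the Rrp6 arrays, with GFP at 6.84 and 6.29. The remaining depletions ran from 5.83 (Csl4 2) to 9.90 (Dis3 1) in zye, and both Rrp46 arrays, at 9.62 and 9.83, exceeded Rrp6 2. The P450 gene Cyp6d2 (-3.90) read 5.21 and 5.33 against 8.34 and 10.01 on the Rrp6 arrays, with GFP at 5.35 and 3.31. In Cyp6d2 the remaining depletions ran from 3.68 (Rrp4 2) to 8.41 (Dis3 2), the latter above Rrp6 1. High levels of these genes were thus not particular to the Rrp6 arrays. CG45263 (-3.51) and trio (-3.83) completed the low side, and trio was not called without Rrp47 2 (adjusted p = 0.1) or Rrp6 1 (0.099).

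Ribosome biogenesis genes were lower with Rrp47 than with Rrp6 dsRNA after normalization, but higher in count as deposited. Here the Rrp6 arrays stood high, with a normalized list mean of 8.98 and 9.16, but the Dis3 arrays were higher, at 9.36 and 9.26. The high mean is thus not particular to the Rrp6 arrays. The Rrp47 arrays, at 8.64 and 8.57, lay near the median of 8.66 over the 18 arrays of the other depletions. The GFP arrays read 8.67 and 8.83. Of 28 tested, 16 were lower and 1 higher, with a median of -0.58 against 0.03 over all genes. After scaling to a common median 6 were lower and 2 higher, and as deposited 1 was lower and 9 higher, with list medians 0.65 and 0.64 below those of all genes. eIF6, which keeps new large ribosomal subunits apart from small ones, read 10.01 and 9.96 on the Rrp47 arrays, against 11.14 and 11.33 on the Rrp6 arrays (-1.25 ± 0.16, 2.38-fold lower, adjusted p = 2.5e-05). RIOK1, a kinase of small subunit maturation, read 6.65 and 6.29 against 7.85 and 7.42 on the Rrp6 arrays (-1.16 ± 0.23, adjusted p = 0.0017). Noc3 was lower at -0.99 ± 0.21 (adjusted p = 0.0031), and Polr1B, a subunit of RNA polymerase I, at -1.14 ± 0.30 (adjusted p = 0.013), with Polr1B not called without Rrp47 1 (adjusted p = 0.074), Rrp47 2 (0.068) or Rrp6 1 (0.074). The exception was again Rrp1 (0.65 ± 0.15, adjusted p = 0.0058), at 0.42 without Rrp6 1 (adjusted p = 0.082). The 16 became 9 without Rrp47 1 or Rrp47 2, 10 without Rrp6 1 and 1 with only these 4 arrays in the fit.

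**Figure D5:**
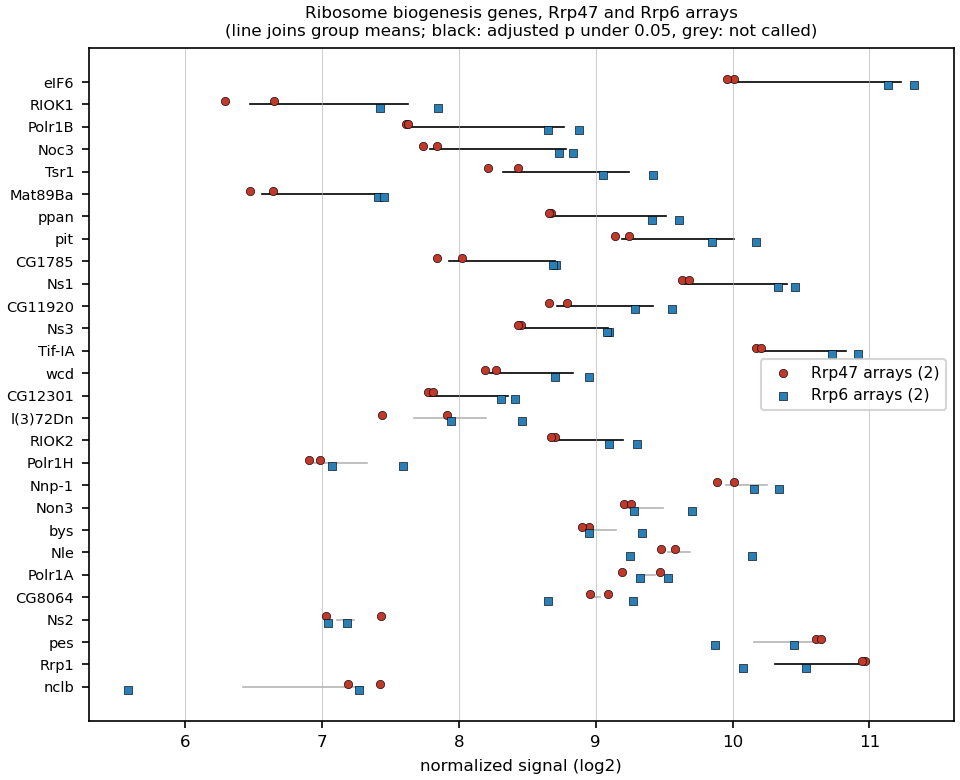
Normalized log2 signal of 28 genes of the ribosome biogenesis list on the 2 Rrp47 arrays (red circles) and the 2 Rrp6 arrays (blue squares), in the order of their difference; a black line joins the group means of called genes and a grey line those of genes not called. The Rrp47 points lie left of the Rrp6 points in the 16 genes called lower, with eIF6 at -1.25 the furthest apart, on the normalized scale. As deposited 9 were higher and 1 lower. GFP and the other depletions are not shown.

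DNA replication and mitosis genes were higher with Rrp47 than with Rrp6 in 8 of 39 and 7 of 28 cases, with 2 and 0 lower. Over all genes 11.0% were higher and 9.50% lower in this comparison. Without Rrp6 1 the replication list turned, with 1 higher and 4 lower, and without Rrp6 2 it had 18 higher and 1 lower. The mitosis list had 4 higher without Rrp6 1 and 12 without Rrp6 2, and with only the 4 compared arrays in the fit neither list had a riser. Mcm5 read 9.24 and 9.30 on the Rrp47 arrays, against 7.43 and 8.92 on the Rrp6 arrays (1.10 ± 0.30, adjusted p = 0.016), with 0.35 without Rrp6 1 (adjusted p = 0.24), 1.84 without Rrp6 2 and adjusted p of 0.074 and 0.088 without Rrp47 1 and Rrp47 2. The Cdc25-type phosphatase gene twe read 6.21 and 5.99 against 4.49 and 4.23 on the Rrp6 arrays (1.74 ± 0.32, adjusted p = 0.00087) and was called whichever array was left out. RPA1, the large subunit of the single-strand binding protein, was lower, at 10.67 and 10.66 against 11.55 and 11.60 on the Rrp6 arrays (-0.91 ± 0.12, adjusted p = 3.2e-05). Without Rrp47 1 the replication list had 2 higher genes and the mitosis list 3, and without Rrp47 2 they had 2 and 4.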

How the data were processed

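One-colour Affymetrix arrays measured mRNA in S2 cells. The values are probe set intensities on a linear scale that the authors deposited, made with GCOS per the submitters' processing notes, and the scaling target and version are not given in the sources used here. Depth has no meaning for arrays, and their number limits the precision. All 22 arrays were quantile-normalized together, given a floor at the 10th percentile of the values (signal 3.216) and put on the log2 scale. After 183 Affymetrix control probe sets were left out, 9385 of 18952 probe sets had a mean log2 signal at or above the median (4.67) and were tested.

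Groups came from the array titles. limma 3.58.1 in R 4.3.3 fitted 1 mean per group on all 22 arrays (lmFit, then eBayes with an intensity trend), with two-sided tests, Benjamini-Hochberg adjustment within each comparison and a threshold of 0.05. The comparisons were Rrp47 against GFP, against the mean of the other 8 depletions and against Rrp6. All 3 share the Rrp47 arrays, so their results are not independent.

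Names came from the array's annotation, updated by gene ID to RefSeq for 7799 of 7825 tested probe sets with 1 symbol. A further 253 had several symbols and 1307 had none in the table used, and none of these was named. The brightest probe set stood for a gene (7222 genes). Named genes were the 15 highest and 15 lowest called genes against GFP, 8 and 8 against the other depletions and 6 and 6 against Rrp6, where both Rrp47 arrays lay on 1 side of all arrays or group means compared, plus all exosome genes and up to 4 rising and 4 falling members of each gene list. The members and lists were chosen with earlier results of these data known. No sequences are shown.

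On simulated data with known changes for Rrp47 against GFP (9385 probe sets), 45 of 50 probe sets raised by 2 on the log2 scale were called, 42 of 50 lowered by 2, 23 of 50 raised by 1, 22 of 50 lowered by 1 and 3 of 9185 unchanged ones. The simulated noise was independent between arrays, with 1 spread per probe set in all groups and no other group differences. In the data the spread differed between groups and some arrays deviated together, so these shares may not hold there. Alternatives were the values as deposited, scaling to a common median, other floors, pseudocounts and filters, fits without groups or single arrays, no trend, array weights and a replicate block.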

Additional observations from a re-analysis of the deposited data

Results flagged for a closer look

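Control probe sets, which are outside the comparisons, differed between the Rrp47 and the GFP arrays. The 3 probe sets for 18S ribosomal RNA read 10.85 and 10.17 on the Rrp47 arrays, against 7.97 and 9.90 on the GFP arrays, a difference of 1.58 on the log2 scale, and the 18 arrays of the other depletions ran from 6.69 to 13.66. The 24 probe sets for poly-A spike-ins, RNAs added to the sample before labelling, were higher by 1.15, at 12.58 and 12.40 on the Rrp47 arrays against 11.60 and 11.08 on the GFP arrays. The 18 hybridization control probe sets, whose targets are added just before hybridization, were higher by 0.47, at 10.31 and 10.16 against 9.92 and 9.61 on the GFP arrays. Spike-ins minus hybridization controls stood at 2.27 and 2.23 on the Rrp47 arrays, against 1.68 and 1.48 on the GFP arrays.

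A set of 2 control probe sets was at the floor (1.69) on both Rrp47 arrays and no higher than 3.40 on the other depletion arrays, against 12.01 and 10.64 on the GFP arrays (mean 11.33 ± 0.97, SD, n = 2). They were picked for being more than 5 above all other arrays on both GFP arrays, and what they detect is not annotated in the tables used.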

How the results depend on the processing

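The value of the targeted gene ran from 1.18 to 2.39 over 16 alternatives and passed the threshold in all of them. Without one array, 954 to 1554 probe sets were called for Rrp47 against GFP, 17 to 2919 for Rrp47 against the other depletions and 967 to 2261 for Rrp47 against Rrp6. In those fits a lone array is assumed to vary like the arrays of the other groups. In the values as deposited 4079 were called against GFP and 5084 against Rrp6. Leaving out Csl4 2, Dis3 2 and Rrp6 2 gave 3286 calls against GFP, 4272 against the other depletions and 3372 against Rrp6. Array weights gave 4086 against the other depletions and 932 against Rrp6. Against the other depletions, 652 were called without the 4 Rrp4 arrays and 1008 with no filter, and against Rrp6, 331 with only those 2 groups in the fit. The cause was not tested. Scaling to a common median put 57.5% of calls against GFP on the higher side, in place of 49.5%. With the filter taken over the compared groups alone, 166 of 176 named genes against GFP were still tested. The same held for 32 of 33 against the other depletions and 26 of 28 against Rrp6. Those still tested kept their calls. As deposited, 8 named genes that had been called turned in the GFP comparison: Klp10A (0.06), Spn77Ba (0.03), Droj2 (0.07), tra2 (0.00), RpS7 (0.23), RpS26 (0.45), Rpn3 (0.12) and eIF1 (0.11), and RPA2 turned against Rrp6 (0.29). So did 5 exosome genes that had not been called against GFP: Mpp6 (0.47), Rrp4 (0.44), Rrp40 (0.11), Rrp6 (0.24) and Snp (0.44). Of 176 named genes against GFP, 107 kept their call without Rrp47 1 and 106 without Rrp47 2, and of 33 against the other depletions 2 and 5 did.

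Replicate numbers did not pair the arrays of the compared groups: the correlation of same-numbered deviations was 0.07 for Rrp47 with GFP and -0.079 for Rrp47 with Rrp6. Over 45 group pairs it ran from -0.347 to 0.41 and was over 0.1 in 4. These were Csl4 with Dis3 (0.401), Csl4 with Rrp6 (0.306), Dis3 with Rrp6 (0.41) and GFP with Mtr3 (0.165). Same-numbered arrays of Csl4, Dis3 and Rrp6 thus deviated together, and those of GFP and Mtr3 did so less. GFP stood at -0.178 with Csl4, -0.219 with Dis3 and -0.183 with Rrp6, so the control arrays were not free of shared deviations. With the replicate number as a block, 1609 probe sets were called against GFP, 1181 against the other depletions and 1554 against Rrp6. With 2 arrays per group, signals near the floor of 1.69 limit the size of large changes.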
